A study of Mus musculus with 30 samples.

Results

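The 10 genes described here encode the mouse MHC class II presentation machinery and its master regulator: the chain genes H2-Aa, H2-Ab1 and H2-Eb1, the invariant chain gene Cd74, the peptide editor genes H2-DMa, H2-DMb1 and H2-DMb2, the editor's inhibitor genes H2-Oa and H2-Ob, and Ciita. They were chosen by name, as the rows of the count table whose Ensembl identifiers map to these symbols. They are 10 of 55487 genes in the table, and all 10 were among the 17638 genes with enough counts to be tested. RNA was sequenced from 30 oral samples of male C57BL/6J mice in 5 pathological stages: normal (n = 3, codes D01 to D03), hyperplasia (n = 8, A01 to A08), dysplasia (n = 7, B01 to B07), carcinoma in situ (n = 6) and invasive carcinoma (n = 6), the last 2 sharing the codes C01 to C12. The protocol given with every sample, the normal ones included, is 4NQO (4-nitroquinoline 1-oxide, a carcinogen that forms DNA adducts) at 100 ug/mL in the drinking water for 10 weeks, begun at 6 weeks of age. Whether the mice behind the normal samples drank it is not stated, nor is the age at sampling, and the labels name the tissue as oral squamous cell carcinoma at every stage, normal included. They also do not say that the samples are from separate animals, so each p-value reflects only how these samples spread. The code letter follows the stage, so a batch that followed the letter cannot be told apart from stage, except between the 2 carcinoma stages.

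MHC class II molecules are pairs of an alpha and a beta chain that carry peptides from engulfed or self proteins to the cell surface, where CD4 T cells read them. The invariant chain, the product of Cd74, blocks the groove until the molecule reaches an acidic compartment, where H2-DM exchanges the remaining fragment for other peptides and H2-O restrains H2-DM. Ciita is a co-activator that does not bind DNA itself: it is recruited by the RFX and NF-Y factors sitting on the X and Y boxes of class II promoters. B cells, dendritic cells (Langerhans cells among them) and macrophages carry class II at rest, and interferon gamma can switch Ciita on in other cells, keratinocytes included. C57BL/6 mice lack a working H2-Ea gene and so show no I-E molecule at the surface, although they transcribe H2-Eb1.

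The promoters were searched for the X and Y boxes through which Ciita is known to act. RefSeq promoter windows on GRCm38, from 250 bases before to 50 bases after each start, held 8 windows of 7 of these genes. H2-Ab1, Cd74 and Ciita had no entry. The X box was searched as the 11 letters in capitals at the left in H2-Eb1 below, with any base allowed at its positions 3, 4 and 7, and the Y box as CTGATTGG, both on either strand. X box letters stood in 318 of 32851 windows (0.968%) and in those of H2-Eb1, H2-DMb1 and H2-Oa. Y box letters stood in 1346 windows (4.10%) and in those of H2-Aa, H2-Eb1 and H2-Oa. With TGATTGG, a 7-base core that lies within the Y box and was chosen after the windows were seen, 2568 windows (7.82%) matched, among them 6 of the 7 genes, all but H2-DMa. An X box followed on the same strand by a Y box after 10 to 30 bases occurred in 2 of 32851 windows, those of H2-Eb1 and its neighbour H2-Eb2. With the Y core in place of the Y box it occurred in 4, which added H2-DMb1 and Hnrnpa1. Stretches of 70 bases are printed to set the gene with an X box and a Y box 10 to 30 bases apart (H2-Eb1, chr17:34305749-34305818, plus strand) beside the H2-DM beta pair, whose levels took different courses in the samples (H2-DMb1, chr17:34153071-34153140, and H2-DMb2, chr17:34145100-34145169, both plus strand), and an alpha chain gene (H2-Aa, chr17:34287861-34287930, minus strand). Each is written 5′ to 3′ along its gene, and capitals mark the X box and the Y core.
H2-Eb1: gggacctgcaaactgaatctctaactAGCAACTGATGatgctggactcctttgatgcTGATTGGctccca
H2-DMb1: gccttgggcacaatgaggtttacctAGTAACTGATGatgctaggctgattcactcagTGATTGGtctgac
H2-DMb2: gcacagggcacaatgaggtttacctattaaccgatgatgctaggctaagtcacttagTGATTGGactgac
H2-Aa: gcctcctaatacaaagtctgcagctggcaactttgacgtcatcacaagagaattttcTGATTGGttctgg
In H2-Eb1 the Y core began 61 bases before the start and 20 bases separated it from the X box, and in H2-DMb1 these distances were 63 and 21. H2-DMb2 has the Y core 92 bases before its listed start, in a stretch that resembles that of H2-DMb1, without the letters searched for as an X box. A match is a run of letters, and none of these windows was assayed for binding.

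Most class II genes rose at the first lesion stage and were higher than normal at the 3 later stages as well. In hyperplasia 7 of the 10 were higher than in normal tissue at an adjusted p under 0.05, where 14.3% of all tested genes were called and 8.22% were called higher. The counts were 8 of 10 in dysplasia (25.7% called, 13.3% higher), 9 at the in situ stage (37.6% and 19.4%) and 9 in invasive carcinoma (46.1% and 23.4%), and none was lower at any stage, where 6.07%, 12.4%, 18.2% and 22.7% of all genes were called lower. The median log2 fold change of the 10 genes against normal was 1.14 in hyperplasia, 0.99 in dysplasia, 1.33 at the in situ stage and 1.23 in invasive carcinoma, beside medians of 0.01 to 0.02 over all tested genes. All 4 comparisons share the same 3 normal samples. Across the 5 stages 8 of 10 differed, beside 53.2% of all genes. Adjusted p-values are from edgeR's quasi-likelihood test with Benjamini-Hochberg adjustment over all 17638 genes, and levels are in CPM (counts scaled to library size), unless stated otherwise. In bulk tissue, more cells that carry class II and more class II RNA per cell cannot be told apart.

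**Figure D1:**
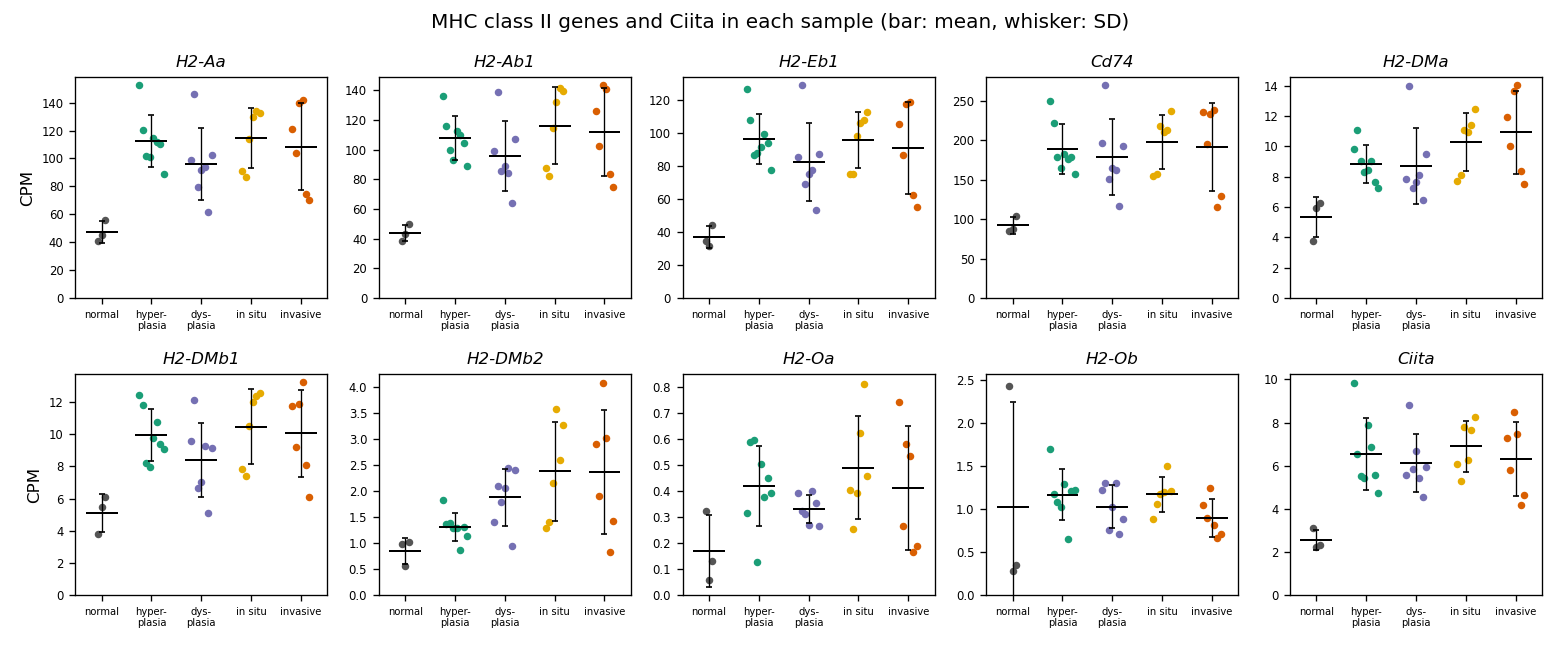
Level in CPM (y axis, from 0) of each of the 10 genes in every sample, by stage, with 1 point per sample, a bar at the mean and a whisker of 1 SD. For H2-Aa, H2-Ab1, H2-Eb1, Cd74, H2-DMa and Ciita every sample of the other 4 stages lies above all 3 normal samples; the normal whisker of H2-Ob, set by 1 sample at 2.44 CPM, runs below the axis.

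Per length of exon, the genes differed by more than 2 orders of magnitude. Over all 30 samples Cd74 stood at 107 RPKM (CPM per kilobase of exon), H2-Eb1 at 44.3, H2-Ab1 at 39.3 and H2-Aa at 26.8. The editor genes were lower, with H2-DMb1 at 5.49, H2-DMa at 2.66 and H2-DMb2 at 1.04 RPKM. Ciita stood at 0.637, H2-Oa at 0.275 and H2-Ob at 0.199 RPKM. H2-Ab1 moved above H2-Eb1, to 83.3 against 51.6 RPKM, when length was taken from the longest transcript, and H2-Ob moved above H2-Oa, to 0.400 against 0.289. With that length H2-DMa stood at 4.57 and Ciita at 1.01 RPKM, so levels per length depend on the gene model.

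H2-Aa, the alpha chain of I-A (GRCm38 chromosome 17, 34282744 to 34287823, minus strand), stood at 41.1, 45.0 and 55.9 CPM in the 3 normal samples. It ran from 88.6 to 153 CPM in hyperplasia (median 111), from 61.6 to 146 in dysplasia (median 93.7), from 86.4 to 134 at the in situ stage (median 122) and from 70.6 to 142 in invasive carcinoma (median 113). No sample of these 4 stages overlapped the normal range. The rise was 2.38-fold in hyperplasia (log2 1.25 ± 0.23 SE, adjusted p = 5.8e-04), 2.03-fold in dysplasia, 2.42-fold at the in situ stage and 2.29-fold in invasive carcinoma.

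H2-Ab1, the I-A beta chain and partner of H2-Aa (chromosome 17, 34257689 to 34269419, plus strand), stood at 38.5, 43.3 and 49.7 CPM in normal tissue. In hyperplasia it ran from 88.8 to 136 CPM (median 107), in dysplasia from 64.2 to 139 (median 88.8), at the in situ stage from 82.2 to 142 (median 123) and in invasive carcinoma from 74.6 to 144 (median 114). The lowest of these 27 samples was still above the highest normal one. The log2 fold changes against normal were 1.30 ± 0.22, 1.12 ± 0.22, 1.41 ± 0.22 and 1.35 ± 0.22 in that order, with adjusted p-values from 4.9e-05 to 8.8e-04.

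H2-Eb1 (chromosome 17, 34305867 to 34316674, plus strand), the I-E beta chain, was at 34.6, 31.7 and 44.5 CPM in D01, D02 and D03. Its hyperplasia samples ran from 78.0 to 127 CPM (median 92.8), dysplasia from 53.2 to 129 (median 77.5), carcinoma in situ from 75.0 to 113 (median 102) and invasive carcinoma from 55.1 to 119 (median 96.2). Again no sample fell into the normal range. It rose 2.62-fold in hyperplasia (log2 1.39 ± 0.24, adjusted p = 2.8e-04), and 2.23-, 2.60- and 2.47-fold in the 3 later stages. The other I-E genes were near 0: H2-Ea-ps, the remnant of the alpha chain gene, averaged 0.0147 CPM in normal tissue, and H2-Eb2 0.0181 CPM in normal tissue and 0.239 CPM in hyperplasia, too few counts to be tested.

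Cd74, the invariant chain (chromosome 18, 60803848 to 60812652, plus strand), stood at 85.0, 87.8 and 105 CPM in normal tissue. It ran from 157 to 251 CPM in hyperplasia (median 180), 117 to 271 in dysplasia (median 165), 155 to 237 at the in situ stage (median 212) and 116 to 238 in invasive carcinoma (median 215), with no overlap with normal. The rise was 2.04-fold (log2 1.03 ± 0.22, adjusted p = 0.00263), 1.94-fold (adjusted p = 0.00357), 2.15-fold (7.6e-04) and 2.07-fold (6.1e-04). The share of all tested genes whose samples of a stage all lay above every normal sample was 9.13% in hyperplasia, 11.6% in dysplasia, 14.1% at the in situ stage and 17.2% in invasive carcinoma.

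The same samples set the extremes of these transcripts. In dysplasia B02 was the highest and B06 the lowest sample for H2-Aa, H2-Ab1, H2-Eb1, Cd74, H2-DMa, H2-DMb1 and Ciita alike. In invasive carcinoma C09 and C12 were the lowest pair for all 10 genes. The spread within a stage was narrower in hyperplasia, where the coefficient of variation of the 3 chain genes and Cd74 was 13.8% to 16.8%, than in dysplasia (24.6% to 28.5%) or invasive carcinoma (26.3% to 30.4%); the difference in spread was not tested.

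The H2-DM pair is the editor that frees class II of the invariant chain fragment. H2-DMa (chromosome 17, 34119541 to 34139101, plus strand), its alpha chain, was at 3.79, 5.97 and 6.24 CPM in normal tissue. It ran from 7.25 to 11.1 CPM in hyperplasia (median 8.74), 6.44 to 14.0 in dysplasia (median 7.82), 7.74 to 12.5 at the in situ stage (median 10.99) and 7.52 to 14.1 in invasive carcinoma (median 10.99), with no sample in the normal range. Its log2 fold change was 0.73 ± 0.22 in hyperplasia (adjusted p = 0.0245), 0.70 ± 0.22 in dysplasia (0.0205), 0.95 ± 0.23 at the in situ stage (0.00214) and 1.03 ± 0.23 in invasive carcinoma (6.3e-04). The 2 earlier calls ended without normal sample D01 (0.53, adjusted p = 0.136 and 0.51, adjusted p = 0.118) or D02 (adjusted p = 0.0629 and 0.0574). H2-DMa shares 360 exon bases with Brd2 on the opposite strand, a transcript at 154 CPM in normal tissue and 183 CPM in dysplasia, and the strand setting of the counts is not given in the sources used here.

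H2-DMb1 (chromosome 17, 34153072 to 34160230, plus strand), the main H2-DM beta chain in these samples, was at 3.79, 5.46 and 6.11 CPM in normal tissue. Hyperplasia ran from 7.98 to 12.4 CPM (median 9.60), dysplasia from 5.09 to 12.1 (median 9.12), carcinoma in situ from 7.397 to 12.6 (median 11.3) and invasive carcinoma from 6.10 to 13.3 (median 10.5). All hyperplasia and in situ samples lay above normal, as did 6 of 7 dysplasia and 5 of 6 invasive samples. It rose 1.94-fold in hyperplasia (log2 0.95 ± 0.24, adjusted p = 0.00851), 1.64-fold in dysplasia (adjusted p = 0.0302), 2.04-fold at the in situ stage and 1.96-fold in invasive carcinoma. Without D01 the hyperplasia value was 0.77 (adjusted p = 0.053) and the dysplasia value 0.54 (0.142), and the dysplasia call also ended without D02 (0.0908) or B02 (0.0592). That call ended as well in the fit with no expression filter (adjusted p = 0.056), with only the groups compared (0.052) and in limma-voom (0.0893).

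H2-DMb2 (chromosome 17, 34143307 to 34151555, plus strand), the second H2-DM beta chain, followed another course. It stood at 0.976, 0.563 and 1.01 CPM in D01, D02 and D03. It ran from 0.865 to 1.82 CPM in hyperplasia (median 1.297), 0.948 to 2.45 in dysplasia (median 2.06), 1.28 to 3.57 at the in situ stage (median 2.37) and 0.827 to 4.07 in invasive carcinoma (median 2.401). Above every normal sample lay 7 of 8 hyperplasia, 6 of 7 dysplasia, all 6 in situ and 5 of 6 invasive samples, and the 2 carcinoma stages had the widest spread. Against normal the log2 fold change was 0.61 ± 0.39 in hyperplasia (adjusted p = 0.304, not called), 1.12 ± 0.40 in dysplasia (0.0364), 1.47 ± 0.40 at the in situ stage (0.00585) and 1.46 ± 0.40 in invasive carcinoma (0.00444). The dysplasia call ended in 6 of 30 fits that left out 1 sample (D01, D02, D03, B04, B05 or B07, with adjusted p of 0.052 to 0.199), with no expression filter (0.0568) and with a skeletal muscle score as a covariate (0.0869). The in situ call against normal ended with the code number as a block (1.05, adjusted p = 0.0541).

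H2-DMb2 was also the only one of the 10 called between lesion stages. It was 1.81-fold higher at the in situ stage than in hyperplasia (log2 0.85 ± 0.28, adjusted p = 0.0319), where 19.0% of all genes were called and 10.6% were higher, and 1.80-fold higher in invasive carcinoma than in hyperplasia (0.85 ± 0.28, 0.0181), where 38.4% were called and 19.1% were higher. The first of these calls ended without A06 (adjusted p = 0.0551), C07 (0.109), C10 (0.0556) or C11 (0.0715), the second without C06 (0.0851), and both with the muscle score as a covariate (0.0501 and 0.0609). Against its near copy, the log2 ratio of H2-DMb2 to H2-DMb1 averaged -2.85 ± 0.32 (SD, n = 8) in hyperplasia, -2.12 ± 0.37 (n = 7) in dysplasia, -2.17 ± 0.29 (n = 6) at the in situ stage and -2.17 ± 0.54 (n = 6) in invasive carcinoma. The ratio was higher than in hyperplasia by 0.73 in dysplasia, 0.69 at the in situ stage and 0.68 in invasive carcinoma, with adjusted p of 0.00799, 0.00799 and 0.0475 in two-sided exact permutation tests over 30 ratio tests. The pair was picked after these values were seen, so the tests describe these samples and are no independent evidence. Normal samples ran from -3.09 to -1.87 and overlapped every other stage. The genes share sequence, with 369 of 1355 50-base words of H2-DMb1 (27.2%) also in H2-DMb2 and 361 of 1434 (25.2%) the other way, so reads could have been split between them in counting.

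**Figure D2:**
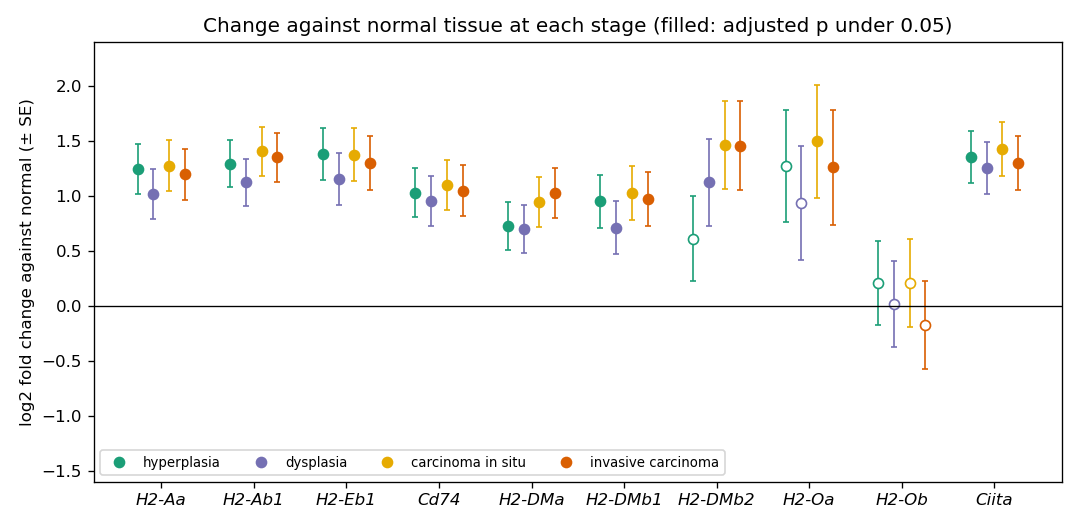
Log2 fold change against normal tissue (y axis, ± SE) of each gene at the 4 other stages; filled points have an adjusted p under 0.05. The chain genes, Cd74 and Ciita lie between 0.96 and 1.43 at all 4 stages, H2-DMb2 goes from 0.61 in hyperplasia to 1.46 in invasive carcinoma, and the points of H2-Ob lie near 0.

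H2-Oa and H2-Ob, which make the H2-O inhibitor of H2-DM, had few counts. H2-Oa (chromosome 17, 34092340 to 34095234, plus strand) stood at 0.325, 0.0563 and 0.132 CPM in D01, D02 and D03. Its medians were 0.422 CPM in hyperplasia (0.129 to 0.599), 0.325 in dysplasia (0.267 to 0.400), 0.431 at the in situ stage (0.254 to 0.811) and 0.399 in invasive carcinoma (0.166 to 0.745). These stages overlapped the normal range. H2-Oa was called higher at the in situ stage (log2 1.498 ± 0.52, adjusted p = 0.0235) and in invasive carcinoma (1.26 ± 0.52, 0.0484), and not in hyperplasia (1.27 ± 0.51, 0.0892) or dysplasia (0.94 ± 0.52, 0.188). The in situ call ended without D02 (1.12, 0.143), D03 (0.101) or C10 (0.0527), and it ended with the muscle score as a covariate (0.0756) and with only the groups compared (0.0624). With the code number as a block it ended too (0.0518). The invasive call ended in 22 of 30 fits that left out 1 sample, with adjusted p up to 0.229, and in DESeq2 (0.0652). It also ended with no expression filter (0.0975), with only the groups compared (0.152) and with the code number as a block (0.0523). The muscle score (0.208) and a salivary gland score (0.0507) as covariates ended it as well. Hyperplasia was called without D01 (2.04, 0.034) or A04 (1.40, 0.0434) and in limma-voom (1.57, 0.0166).

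H2-Ob (chromosome 17, 34238903 to 34254414, plus strand) is the member whose result rests on 1 library. It stood at 2.44 CPM in D01, 0.282 in D02 and 0.352 in D03. Hyperplasia ran from 0.649 to 1.70 CPM (median 1.19), dysplasia from 0.711 to 1.30 (median 1.03), carcinoma in situ from 0.881 to 1.501 (median 1.19) and invasive carcinoma from 0.662 to 1.25 (median 0.860). All 27 lesion samples thus lay below D01 and above D02 and D03. With D01, edgeR called no comparison (log2 fold change -0.17 to 0.21, adjusted p from 0.714 to 0.979). Without D01 all 4 were: 1.85 in hyperplasia (adjusted p = 0.00104), 1.67 in dysplasia (0.00136), 1.87 at the in situ stage (4.9e-04) and 1.49 in invasive carcinoma (0.00138). With D01 kept, limma-voom with sample weights also called all 4, at 1.34 (0.00643), 1.17 (0.0101), 1.40 (0.00379) and 1.09 (0.0206). H2-O is best known from B cells, and D01 also stood apart in 8 B cell markers, which summed to 11.8 CPM there, 10.3 CPM in dysplasia sample B01 and 1.01 to 3.80 CPM in the other 28 samples. Without D01 and B01 together, a choice made after seeing these sums, the values were 1.85, 1.62, 1.85 and 1.47. Salivary gland markers summed to 9969 CPM in D01, against 55.8 in D02 and 49.9 in D03. They summed to 35159 CPM in B01, the highest of all samples. A08 (20566 CPM) and C12 (11644 CPM) also lay above D01 in these gland markers. The B cell markers of A08 and C12 summed to 1.62 and 3.12 CPM. The part of B cells or gland tissue in the H2-Ob values was not tested.

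Ciita (GRCm38 chromosome 16, 10480059 to 10528418, plus strand) rose beside the chain genes it is known to switch on. It stood at 3.09, 2.25 and 2.33 CPM in normal tissue. It ran from 4.75 to 9.86 CPM in hyperplasia (median 6.06), 4.54 to 8.82 in dysplasia (median 5.85), 5.28 to 8.26 at the in situ stage (median 6.97) and 4.18 to 8.49 in invasive carcinoma (median 6.53). Every sample of these stages lay above every normal sample. The rise was 2.56-fold in hyperplasia (log2 1.36 ± 0.24, adjusted p = 3.4e-04), 2.39-fold in dysplasia (7.6e-04), 2.69-fold at the in situ stage (1.3e-04) and 2.47-fold in invasive carcinoma (1.4e-04). Ciita shares 329 exon bases with Dexi on the opposite strand, and Dexi stood at 29.03 ± 2.13 CPM in normal tissue (SD, n = 3) and 30.3 ± 1.81 in hyperplasia (n = 8), with no call at any stage.

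Between lesion stages no change of the chain genes, Cd74 or Ciita was called. Dysplasia against hyperplasia, carcinoma in situ against dysplasia, and invasive against in situ carcinoma each gave 0 of 10 calls, and 0 of 10 at an unadjusted p under 0.05. The shares of all genes called in these comparisons were 5.18%, 5.47% and 0%. Of the 17638 genes tested, 3696, 4112 and 1259 had an unadjusted p under 0.05 in these comparisons. Without 1 sample the first went from 914 genes to between 507 (without A04) and 1486 (without B01), and the second from 964 to between 164 (without C07) and 2201 (without C04). DESeq2 and limma-voom gave 0 of 10 in these 3 as well. Of all genes they called 1349 and 3600 in the first, 1473 and 2270 in the second, and 0 in the last. Invasive carcinoma against dysplasia also gave 0 of 10 (19.6% of all genes called), but 1 with limma-voom and 1 without dysplasia sample B02. From hyperplasia to invasive carcinoma the 95% intervals of the log2 change were -0.27 to 0.38 for H2-Ab1, -0.40 to 0.29 for H2-Aa, -0.44 to 0.27 for H2-Eb1, -0.32 to 0.36 for Cd74 and -0.40 to 0.29 for Ciita. Ordered by mean, these 5 genes had normal lowest and dysplasia next, and no neighbours from dysplasia upward were called different (adjusted p from 0.495 to 0.975).

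The members varied together from sample to sample. Over the 30 samples, Pearson's r of log2 CPM was 0.961 to 0.992 between H2-Aa, H2-Ab1, H2-Eb1 and Cd74, and 0.939 to 0.984 after each stage's mean was subtracted. Ciita correlated with these 4 at 0.913 to 0.924, and at 0.803 to 0.817 within stages. H2-DMa and H2-DMb1 followed them at 0.881 to 0.950, H2-DMb2 at 0.695 to 0.754, H2-Oa at 0.643 to 0.663 and H2-Ob at 0.407 to 0.471. The points share library depth and tissue make-up, and the low counts of the H2-O genes limit their values, so these are descriptions with no test.

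**Figure D3:**
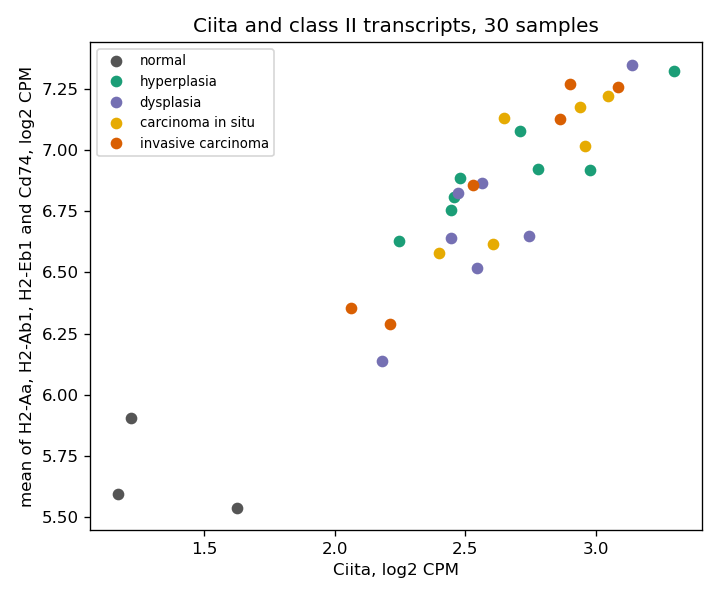
Ciita (x axis, log2 CPM) against the mean of H2-Aa, H2-Ab1, H2-Eb1 and Cd74 (y axis, log2 CPM) in 30 samples, coloured by stage. The 3 normal samples lie apart at the lower left, and the 4 other stages lie along a common slope and overlap.

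Genes with a pattern most like that of the 4 abundant transcripts, out of 14600 protein-coding genes compared, were Myo1g (r = 0.925 over 30 samples), a myosin of blood cells, Cd72 (0.914), a lectin receptor of B cells and some myeloid cells, and the integrin chains Itgb7 (0.901) and Itgae (0.888), which pair to hold leukocytes at epithelium. Ly75 (0.873), the DEC-205 endocytic receptor, Itgax (0.865), the CD11c integrin of dendritic cells, Wdfy4 (0.859), needed for cross-presentation, and Arhgap30 (0.854) came next. Cd72, Ly75, Itgb7 and Myo1g were also the 4 most like Ciita (0.867 to 0.889), followed by Il2rb (0.863), a chain of the interleukin receptor of T and NK cells. With stage means subtracted, Myo1g (0.835), Fgd2 (0.818), Wdfy4 (0.813), Sp110 (0.810), Psmb8 (0.791), Cd72 (0.783), Psmb9 (0.779) and Slamf8 (0.776) led for the abundant transcripts, and Wdfy4 (0.770), Dock10 (0.760), Slamf7 (0.744), Crispld2 (0.742) and H2-M2 (0.741) for Ciita. Among them, Itgae went from 1.14 CPM in normal tissue to 4.33 in both hyperplasia and invasive carcinoma, and Cd72 from 0.974 to 4.68 and 4.98.

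The factors that bring Ciita to its promoters had small changes. Of 8 RFX, NF-Y and CREB genes, 2 were higher in hyperplasia than in normal tissue and 0 lower, with a median log2 change of 0.05. Beside this and the lists below, 14.3% of all tested genes were called against normal in hyperplasia and 25.7% in dysplasia. At the in situ stage 37.6% were called and in invasive carcinoma 46.1%. A count near these shares does not set a list apart from other genes. Nfya, an NF-Y subunit, rose by 0.32 ± 0.10 (adjusted p = 0.0331) and Rfx5 by 0.28 ± 0.08 (0.0254) in hyperplasia. Nfya and Creb1 were the 2 called in dysplasia (0.52 and 0.27) and in invasive carcinoma (0.44 and 0.24), and Nfya and Rfx5 (0.48 and 0.27) at the in situ stage. Nfyb was at 26.1 CPM in normal tissue and in hyperplasia, and was lower in invasive carcinoma than in hyperplasia (-0.16 ± 0.06, 0.0409).

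Genes that prepare peptides for class II split. Of 9 lysosomal processing genes, 2 rose in hyperplasia, 1 rose and 1 fell in dysplasia, 4 rose and 1 fell at the in situ stage, and 5 rose and 2 fell in invasive carcinoma. Ctss, the protease that trims the invariant chain, rose from 16.3 ± 4.62 CPM to 32.8 ± 4.79 in hyperplasia (log2 1.01 ± 0.22, adjusted p = 0.00253), was at 0.56 ± 0.22 in dysplasia (0.0542) and rose by 1.13 ± 0.22 in invasive carcinoma (2.5e-04). Ifi30, the thiol reductase that opens disulfide-linked antigens, rose by 0.73 ± 0.10 in hyperplasia (4.5e-05) and 0.96 ± 0.11 in invasive carcinoma (9.1e-07). The aspartic protease Ctsd and the aminopeptidase Ctsh were not called in hyperplasia (0.03 and 0.17) and rose in invasive carcinoma (0.35 and 0.60).

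Cd80 and Cd86, costimulators of the presenting cell, rose along with class II in hyperplasia. Of 7 surface turnover and costimulation genes, 3 rose in hyperplasia, 1 rose and 1 fell in dysplasia, and 4 rose and 1 fell in each carcinoma stage. Cd80 went from 0.861 ± 0.273 CPM in normal tissue to 4.83 ± 0.929 in hyperplasia (log2 2.47 ± 0.35, adjusted p = 4.5e-05) and 4.99 ± 2.13 in invasive carcinoma, and Cd86 rose by 1.13 ± 0.26 in hyperplasia (0.00494). Cd80 was lower in dysplasia than in hyperplasia (-1.15 ± 0.23, 0.00285), a comparison in which none of the 10 class II genes was called. Icosl was not called in hyperplasia (0.34 ± 0.17, 0.164) and rose by 0.85 ± 0.17 in invasive carcinoma (3.4e-04). March8, a ubiquitin ligase that removes class II and other proteins from the surface, fell by 0.46 at the in situ stage (9.4e-05) and 0.41 in invasive carcinoma (1.5e-04).

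On the T cell side, 3 of 5 tested genes rose in hyperplasia, 3 in dysplasia and 4 in each carcinoma stage, with none lower; Cd40lg had too few counts to be tested. Cd4, the co-receptor for class II, went from 0.650 ± 0.692 CPM to 2.67 ± 0.520 in hyperplasia (log2 2.04 ± 0.46, adjusted p = 0.00401) and 1.65 ± 0.678 in invasive carcinoma (1.35 ± 0.47, 0.0203). Icos rose by 2.82 ± 0.44 in hyperplasia and 3.11 ± 0.45 in invasive carcinoma, and Ctla4, the inhibitory receptor for Cd80 and Cd86, by 2.39 ± 0.42 and 1.97 ± 0.43. Cd28 was not called at any stage (0.52 in hyperplasia, 0.18 in invasive carcinoma).

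Genes of the interferon route to Ciita differed among themselves. Of 7 tested genes of that list, 3 rose in hyperplasia, 1 rose and 1 fell in dysplasia, and 2 rose and 1 fell in each carcinoma stage. Ifng, the ligand, was at 0 in the 3 normal samples and averaged 0.0711 CPM in hyperplasia, too low to be tested. Irf1, a transcription factor that interferon gamma induces, rose by 0.67 ± 0.19 in hyperplasia (0.0163) and was at 0.30 ± 0.19 in invasive carcinoma (0.208). Socs1, the feedback inhibitor of the pathway, instead rose at all 4 stages (1.51 ± 0.25 in hyperplasia, 2.15 ± 0.26 in invasive carcinoma).

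**Figure D4:**
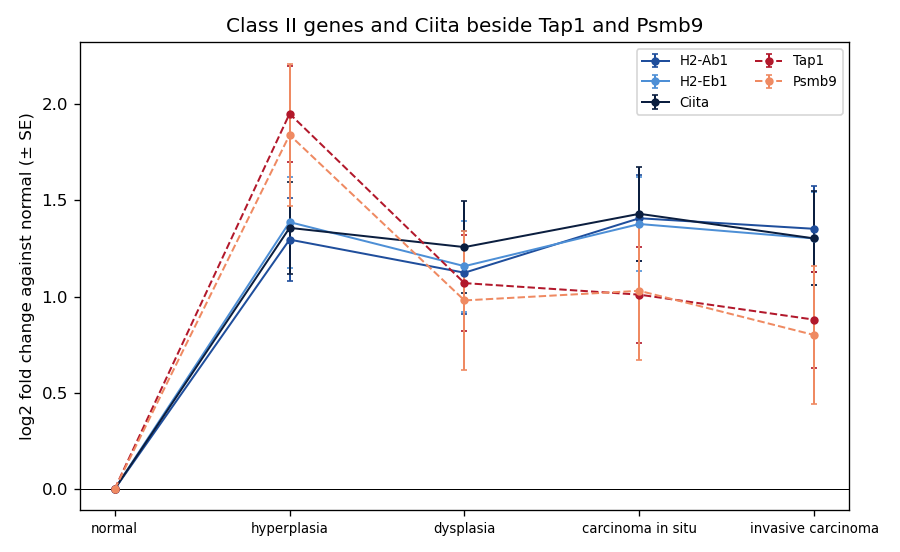
Log2 fold change against normal (y axis, ± SE, normal set to 0) at each stage for H2-Ab1, H2-Eb1 and Ciita (solid lines) and for Tap1 and Psmb9 (dashed lines). The solid lines stay between 1.12 and 1.43 at the 4 other stages, while Tap1 goes from 1.95 in hyperplasia to 0.88 in invasive carcinoma and Psmb9 from 1.84 to 0.80.

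Genes that lie among the class II genes on chromosome 17 but serve class I presentation had their highest mean in hyperplasia in the case of Tap1, Tap2, Psmb8 and Psmb9. Of 5 tested genes of this region outside the 10, these 4 included, 4 rose in hyperplasia, 5 in dysplasia, 5 at the in situ stage and 4 in invasive carcinoma. In invasive carcinoma 3 were lower than in hyperplasia. Brd2, which also lies in this region, was not called in hyperplasia (0.17, adjusted p = 0.11). It rose by 0.25 in dysplasia (0.0124), 0.24 at the in situ stage (0.0121) and 0.23 in invasive carcinoma (0.013). Tap1, which pumps peptides into the endoplasmic reticulum, ran from 13.9 to 23.7 CPM in normal tissue, 53.6 to 89.6 in hyperplasia and 25.4 to 45.0 in invasive carcinoma, so that hyperplasia and invasive carcinoma did not overlap. It rose by 1.95 ± 0.25 in hyperplasia (adjusted p = 1.8e-05) and by 0.88 ± 0.25 in invasive carcinoma (0.00529), a fall of 1.08 ± 0.18 between them (1.1e-04). Tap2 (1.02 and 0.50), Psmb9 (1.84 and 0.80, the latter not called, 0.0687) and Psmb8 (1.42 and 0.96) followed. The log2 ratio of H2-Ab1 to Tap1 was 0.49 ± 0.29 (SD, n = 8) in hyperplasia, 1.23 ± 0.19 (n = 7) in dysplasia, 1.52 ± 0.35 (n = 6) at the in situ stage and 1.59 ± 0.27 (n = 6) in invasive carcinoma. Each of the 3 later stages was higher than hyperplasia (by 0.75, 1.04 and 1.11, each with adjusted p = 0.00799 in the exact permutation test). This pair too was picked after its values were seen.

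**Figure D5:**
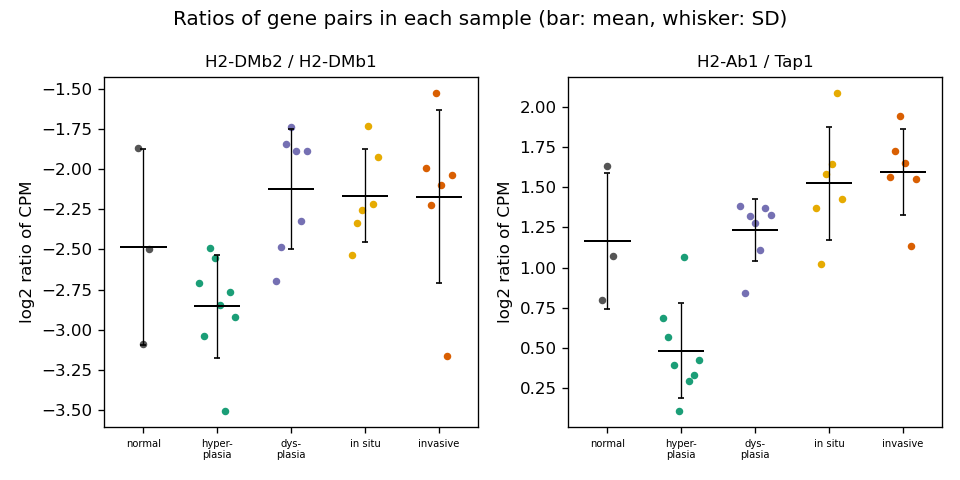
Log2 ratio of CPM (y axis) of H2-DMb2 to H2-DMb1 and of H2-Ab1 to Tap1 in every sample, by stage, with a bar at the mean and a whisker of 1 SD. Hyperplasia has the lowest mean in both panels, -2.85 and 0.49.

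The summed dendritic cell markers were higher along with class II. The 9 dendritic and Langerhans cell markers summed to 13.6 to 14.0 CPM in normal tissue, 18.8 to 25.4 in hyperplasia, 17.4 to 27.9 in dysplasia, 20.2 to 33.9 at the in situ stage and 18.9 to 35.0 in invasive carcinoma, with no overlap with normal. Of 8 tested, 2 rose in hyperplasia, 3 in dysplasia, 4 at the in situ stage, and 4 rose and 1 fell in invasive carcinoma. Itgax rose from 1.71 ± 0.0880 CPM to 7.66 ± 1.09 in hyperplasia (log2 2.16 ± 0.24, adjusted p = 1.3e-06) and 8.89 ± 1.98 in invasive carcinoma, and Ccr7, which guides dendritic cells to lymph nodes, by 2.49 ± 0.53 and 2.89 ± 0.54. The mean sum of the 9 markers went from 13.8 CPM in normal tissue to 20.8 in hyperplasia and 26.0 in invasive carcinoma. Itgax alone thus gave most of the rise of the sum at both stages. Cd207, the langerin of Langerhans cells, was not called in hyperplasia (0.43 ± 0.35) and rose in invasive carcinoma (1.84 ± 0.37). Zbtb46, a factor of conventional dendritic cells, was not called in hyperplasia (-0.32 ± 0.21) and fell by 0.64 in invasive carcinoma, and Flt3 was not called in hyperplasia (0.57 ± 0.31). The mean of the list correlated with the mean of the 4 abundant class II transcripts at r = 0.866 over 30 samples and 0.821 within stages.

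T cell markers summed to 1.80 to 3.61 CPM in normal tissue and 5.15 to 10.4 in hyperplasia, with 3, 2, 5 and 4 of 6 higher in the 4 lesion stages in order (r = 0.814, 0.656 within stages). The sums ran from 2.33 to 9.80 CPM in dysplasia, which overlapped with normal. They ran from 4.37 to 11.2 CPM at the in situ stage and from 5.09 to 10.4 in invasive carcinoma. Macrophage and monocyte markers overlapped with normal (89.9 to 142 CPM in normal tissue, 122 to 197 in hyperplasia and 129 to 173 in invasive carcinoma), with 2 of 10 higher in hyperplasia (r = 0.629, 0.551 within stages). In dysplasia 1 was higher and 1 lower, at the in situ stage 3 and 1, and in invasive carcinoma 4 and 1. Fcgr1 rose by 2.49 ± 0.44 in hyperplasia while Csf1r was not called (0.11 ± 0.15, adjusted p = 0.679). B cell markers, of which 3 of 8 could be tested, had 0 called in hyperplasia, and their mean went with class II at r = -0.069 over 30 samples. Ms4a1 and Cd79a were at 0 in some lesion samples and averaged 0.108 and 0.128 CPM in hyperplasia. Blk, a kinase of B cells and of some gamma delta T cells, rose by 2.50 ± 0.60 in invasive carcinoma (0.00145). In each carcinoma stage 1 of the 3 tested B cell markers was called higher than normal and 1 lower. The median log2 change of the 3 was -1.23 at the in situ stage and -1.16 in invasive carcinoma. All 8 B cell markers summed to 11.8 CPM in normal sample D01 and to 1.58 CPM in D02 and in D03. The 2 carcinoma stages ran from 1.49 to 3.80 CPM, so only D01 of the normal samples lay above them. The part of these cells in the class II values was not tested.

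Tissue make-up also moved with stage. The 10 skeletal muscle markers summed to 41036 to 56541 CPM in normal tissue, 27197 to 48296 in hyperplasia and 11197 to 29634 in invasive carcinoma, and 1 rose and 1 fell in hyperplasia and 8 fell in invasive carcinoma. With a muscle score as a covariate, 7 of the 10 genes were called in hyperplasia and 8 in invasive carcinoma against normal, with H2-Ab1 at 1.37 and 1.65 and Ciita at 1.43 and 1.62. Of all tested genes, 2811 and 2617 were called in these comparisons with that score, and 2519 and 8127 without it. Keratinocyte markers were high in every sample (36481 to 54860 CPM in normal tissue, 35824 to 51193 in invasive carcinoma), and 1 of 7 rose in hyperplasia and 5 in invasive carcinoma, with 1 lower; their mean went with class II at r = 0.259 over 30 samples and -0.323 within stages. None of 5 endothelial markers was called in hyperplasia and all 5 fell in invasive carcinoma. Salivary gland markers ran from 18.9 to 35159 CPM among samples, and 0 of 9 tested were called in hyperplasia or invasive carcinoma.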

How the data were processed

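Libraries from total RNA were made with a stranded mRNA kit, per the labels. The submitters' processing notes name cutadapt 2.4, STAR 2.7.2a and the build GRCm38. How reads were counted, and with which strand setting, is not given in the sources used here. What the authors deposited is raw read counts by Ensembl gene in a single table of 30 samples, all of them used. Symbols and coordinates came from GENCODE M21 (GRCm38), to which 55227 of 55487 identifiers matched (99.53%). Totals ran from 17725604 to 28023098 counts per sample.

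The main test was that of edgeR 4.0.16 (R 4.3.3), with TMM factors (0.892 to 1.06), its default filter (17638 genes) and a robust quasi-likelihood fit with 1 mean per stage over all 30 samples, which share 1 estimate of the spread. The 10 pairwise comparisons and the any-stage test were two-sided, with Benjamini-Hochberg adjustment within each, and genes with an adjusted p under 0.05 count as called. CPM and RPKM use TMM-scaled totals and, for RPKM, the union of exons; correlations use log2 CPM with a prior count of 2. Ratios of gene pairs were compared with exact permutation tests in scipy 1.17.1, adjusted over 30 tests (3 pairs); some genes and 1 of these pairs are not reported here. The scripts were tested on simulated counts.

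Alternatives were RLE factors, no filter, DESeq2 1.42.0, limma-voom (limma 3.58.1) with sample weights, only the groups compared, muscle or salivary scores as covariates, the code number as a block, and leaving out each sample. The 10 genes and the 14 other gene lists (promoter factors, antigen processing, surface turnover and costimulation, T cell side, interferon gamma path, other class II region genes, and markers of B, dendritic, macrophage, T, keratinocyte, endothelial, skeletal muscle and salivary cells) were chosen with earlier results of these data known. Of each list at most 4 tested genes with the smallest any-stage adjusted p were named, besides the first 3 markers of a cell type; genes of like pattern were the 8 with the highest correlation with the mean of H2-Aa, H2-Ab1, H2-Eb1 and Cd74, and the 5 with that of Ciita.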

Additional observations from a re-analysis of the deposited data

Results flagged for a closer look

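In dysplasia H2-DMa stood at 14.0 CPM in sample B02, and the next sample was at 9.52 CPM. That gap is 0.591 of the whole range of the 7 dysplasia samples. B02 was also the highest dysplasia sample for H2-Aa, H2-Ab1, H2-Eb1, Cd74, H2-DMb1 and Ciita, and its T cell markers summed to 9.80 CPM, the highest of that stage. It was 1 of 40 groups of values checked, and chance alone would mark about 1 in 20.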

How the results depend on the processing

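Of 35 called log2 fold changes, 25 kept their direction and their call under all 39 alternatives each, the 4 stage changes of H2-Aa, H2-Ab1, H2-Eb1, Cd74 and Ciita among them, and none of the 1365 values reversed. Called genes against normal numbered 6 to 8 in hyperplasia, 5 to 8 in dysplasia, and 8 to 10 in each carcinoma stage when 1 sample was left out (any stage 8 to 9); the 5 in dysplasia came without D02. Against hyperplasia, carcinoma in situ gave 0 to 1 and invasive carcinoma 0 to 1, and invasive carcinoma against dysplasia gave 0 to 1, without 1 sample. With the muscle score as a covariate both carcinoma stages gave 0 against hyperplasia. Limma-voom gave 2 in invasive carcinoma against hyperplasia, with H2-DMa added (0.41, adjusted p = 0.0373), and 1 against dysplasia. In the comparison with hyperplasia it called 7044 of all genes. H2-Ob in invasive carcinoma against normal turned from -0.17 to 1.09 in limma-voom, 1.49 without D01 (-0.61 to 1.49 over the fits without 1 sample) and 1.47 without D01 and B01 together. The Y core in place of the Y box raised the count of promoters from 3 to 6. Over all genes, the number called against normal went from 4540 to 1282 in dysplasia and from 2519 to 926 in hyperplasia without D02, and with the muscle score from 4540 to 936 in dysplasia, from 8127 to 2617 in invasive carcinoma and from 6630 to 3482 at the in situ stage; it went from 6768 to 1600 for invasive carcinoma against hyperplasia and from 3351 to 1480 for the in situ stage against hyperplasia. Dysplasia against hyperplasia went from 914 to between 473 (no filter) and 3600 (limma-voom), and the in situ stage against dysplasia from 964 to between 164 (without C07) and 2502 (muscle score). Invasive carcinoma against dysplasia went from 3455 to 1570 without C09. The cause of these changes was not tested. H2-Oa had 1 to 20 counts per sample, which limits its precision.

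The labels do not say whether the code numbers pair samples. Over 31 same-numbered pairs from different stages, deviations from stage means correlated at -0.564 to 0.512 (median 0.0489), with 11 pairs over 0.1. Pairs with different numbers had a median of -0.00384. The values span both signs, so they do not settle whether any samples were paired. With the number as a replicate block, carcinoma in situ against hyperplasia gave 0 calls (H2-DMb2 0.48, adjusted p = 0.283), where 3261 of all genes were called. Against normal the 10 genes gave 7 calls in hyperplasia, 8 in dysplasia, 7 at the in situ stage and 8 in invasive carcinoma. Of all genes, 2136, 4218, 5830 and 3759 were called against normal in that order. Over all genes the block took invasive carcinoma against dysplasia from 3455 to 8 calls. The numbers of C09, C10, C11 and C12 occur in no other sample, so the block fits these samples exactly. These carcinoma samples therefore add nothing to the contrasts of that fit.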
